A study of Homo sapiens with 6 samples.

Results

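Collagen and laminin genes were examined in A549 cells that overexpress IL17D. They were taken from the deposited gene count table as the protein-coding rows whose symbol is COL, a number, A and a number, or LAM followed by A, B or C and a number, with no measured value used. This gave 56 of the 58735 genes in the table, namely 44 collagen genes and 12 laminin genes. The choice of this gene family was itself made with earlier results of these data known. A549 is a human lung adenocarcinoma cell line, and both groups were grown in the same serum-containing medium. IL17D-expressing cells carried a lentiviral vector with the open reading frame of the cytokine IL17D under the human PGK promoter, with GFP, and control cells carried the empty vector. RNA of 3 libraries per group was sequenced, and neither the labels nor the methods say whether the libraries of a group came from separate cultures or transductions, or whether the cells were a clone, so p-values measure only the spread between these libraries.

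Collagens are triple-stranded proteins of the extracellular matrix. The fibrillar types I, III and V form the fibrils of connective tissue, and fibril-associated types such as type XII bind to their surface. Type IV collagen forms a network in the basement membrane, the thin sheet on which epithelial cells rest, and its genes lie in head-to-head pairs. Type VII forms the fibrils that anchor that sheet, and type XVIII is a basement membrane collagen that carries sugar chains and whose end fragment is endostatin. Laminins are made of an alpha, a beta and a gamma chain and form the other network of the basement membrane. In the lung, laminin-511 (LAMA5, LAMB1, LAMC1) and the chains LAMA3 and LAMB3 are made by epithelial cells, and fibroblasts make most of the fibrillar collagen.

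The upstream sequences of COL18A1, the gene that differed between the groups, are shown because the counts per gene cannot separate transcripts from its different start sites, and the interval between COL4A1 and COL4A2 is shown because both genes start from it. RefSeq lists 2 start sites for COL18A1 on chromosome 21, at the start of the gene and within it, and the 250 bases before each are given on the plus strand (build GRCh38.p14, chr21:45404915-45405164 and chr21:45455272-45455521). COL4A1 and COL4A2 are transcribed away from each other from start sites 127 bases apart on chromosome 13, and the 126 bases between them are given on the strand of COL4A2 (chr13:110307158-110307283). Capitals mark the letters GGGCGG or their reverse complement, the GC box to which transcription factors of the SP family bind.
COL18A1 start 1: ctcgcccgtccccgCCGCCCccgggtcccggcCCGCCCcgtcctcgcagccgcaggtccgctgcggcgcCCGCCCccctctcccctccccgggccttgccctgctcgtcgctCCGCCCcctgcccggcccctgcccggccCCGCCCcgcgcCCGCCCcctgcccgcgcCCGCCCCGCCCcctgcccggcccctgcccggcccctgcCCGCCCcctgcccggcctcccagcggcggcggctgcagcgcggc
COL18A1 start 2: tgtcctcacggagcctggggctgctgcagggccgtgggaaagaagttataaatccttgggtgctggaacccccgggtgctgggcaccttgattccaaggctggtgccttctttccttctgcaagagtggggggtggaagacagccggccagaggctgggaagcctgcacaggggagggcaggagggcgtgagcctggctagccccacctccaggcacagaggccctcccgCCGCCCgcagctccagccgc
COL4A1 to COL4A2 interval: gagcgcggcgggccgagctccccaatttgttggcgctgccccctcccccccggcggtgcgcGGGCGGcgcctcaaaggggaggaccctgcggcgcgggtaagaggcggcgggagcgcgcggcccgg
The window of the first COL18A1 start was 88.4% G and C, with 37 CpG dinucleotides and 9 GC boxes. The window of the second start was 66.4% G and C, with 9 CpG dinucleotides and 1 GC box. The interval between COL4A1 and COL4A2 was 80.2% G and C and held 20 CpG dinucleotides and 1 GC box. The letters TGAGTCA, to which the AP-1 factors bind, were in none of the 3 sequences on either strand. RefSeq windows were at hand for 41 of the 56 genes, and of their 55 windows of 250 bases, 58.2% held a GC box and 3.64% held TGAGTCA on either strand. Of all 35116 windows of the same length, 42.6% and 4.20% did. The windows of these genes were also richer in G and C, with a median of 63.2% beside 58% for all windows. The shares were not adjusted for this. The other type IV pairs also faced each other, COL4A4 and COL4A3 at a distance of 419 bases and COL4A6 and COL4A5 at 380 bases, or at 1416 bases from the second start site of COL4A6.

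Counts on genes totalled 14319398 to 16521021 per library, and a count of 0 in a library allows up to 3 counts, which was 0.182 to 0.210 CPM (counts relative to a library's scaled total, as edgeR's cpm computes them), for counting error only. IL17D itself had 1.61 ± 0.450 CPM in control cells and 1911 ± 40.6 CPM in IL17D-expressing cells (SD, n = 3), so the targeted gene followed the labels. A549 had the epithelial keratins, with 10805 to 11544 CPM summed over the 6 epithelial markers, but EPCAM and KRT19 were low (96 and 37 counts in the 6 libraries together). The 8 fibroblast markers summed to 0.830 to 1.42 CPM in control libraries and to 0.420 to 0.851 CPM in IL17D libraries, none passed the filter on low counts, and PDPN had no count. The 4 endothelial markers summed to 0.0701 to 0.608 CPM over the 6 libraries, with KDR at 0, and of the 3 leukocyte markers PTPRC and CD3E had no count and CD14 had 0.497 to 1.22 CPM (76 counts in all; log2 fold change 0.13, adjusted p = 0.952 from edgeR). CDH1, which encodes the epithelial adhesion protein E-cadherin, was lower in IL17D-expressing cells (log2 fold change -0.28, adjusted p = 0.0306 from edgeR), and CLDN4 (-0.65, adjusted p = 0.113) and KRT8 (-0.056, adjusted p = 0.265) also lay lower in all 3 IL17D libraries without passing. The part of these markers in the results that follow was not tested.

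Laminin genes held more counts than collagen genes in every library, without regard to gene length. They summed to 2892 ± 50.9 CPM in control cells and 2893 ± 20.2 CPM in IL17D-expressing cells, and collagen genes to 1186 ± 33.3 CPM and 1121 ± 35.9 CPM (SD, n = 3). Laminins thus took 0.284% to 0.295% of the counts of a library and collagens 0.108% to 0.123%. Per kilobase of exon, the scale on which levels of different genes can be compared, the chains of laminin-511 led. LAMA5, the alpha chain, had a mean level of 105 CPM per kilobase over the 6 libraries, LAMB1, the beta chain, 68.4, and LAMC1, the gamma chain, 66.4. The levels of LAMB1 and LAMC1 overlapped between libraries. LAMB2, the beta chain of laminins of the synapse and of the kidney filter, followed with 25.6 CPM per kilobase, and the collagens began below it with COL18A1 (20.7), COL4A6 (18.8), COL7A1 (14.7) and COL4A2 (10.5). With the length of the transcript that has the longest coding sequence, a choice made after the data were seen, the order changed: COL4A2 stood at 31.3 CPM per kilobase, LAMB2 at 30.9 and COL18A1 at 26.7, and LAMB1 (96.5) and LAMC1 (70.7) were further apart. The plot of levels shows that the genes spread over more than 3 orders of magnitude. The libraries of both groups lay close together for the abundant genes but not for the lowest. LAMA2, for example, had 0.185 to 1.18 CPM within the control libraries.

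**Figure D1:**
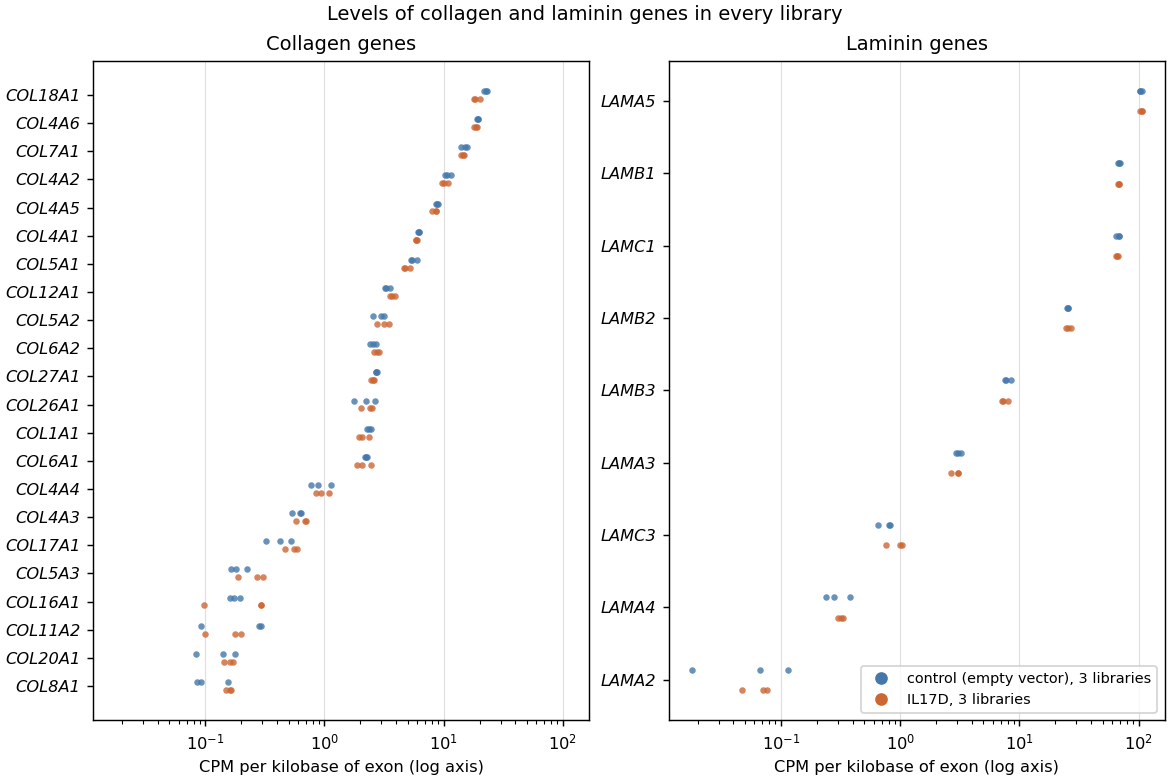
Level of all but 1 of the 32 tested collagen and laminin genes in CPM per kilobase of exon (log axis), with 1 point for each of the 3 control and 3 IL17D libraries. LAMA5, LAMB1 and LAMC1 stand highest at 105, 68.4 and 66.4 CPM per kilobase on average, and of the collagens COL18A1 stands highest at 20.7 on this scale, an order that turns with transcript length.

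The laminin chains were dominated by 1 member of each kind. LAMA5 held 96.6% to 97.2% of the summed level of alpha chains per kilobase in each library, and LAMC1 held 95.9% to 96.5% of that of gamma chains. The beta chains were more mixed, with 66.6% to 67.9% for LAMB1, 24.7% to 26.3% for LAMB2 and 7.01% to 8.29% for LAMB3. In type IV collagen, COL4A6 held 40.2% to 42.6% of the summed level, COL4A2 22.3% to 24.4%, COL4A5 17.9% to 19.9% and COL4A1 12.8% to 13.4%. The order of COL4A6 and COL4A2 depends on the length used, because the exons listed for COL4A2 are much longer in all than its main transcript. With transcript length, COL4A2 held 34.5% to 37.2% and COL4A6 28.4% to 30.5%.

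Of the 56 genes, 32 passed the filter on low counts, 22 collagens and 10 laminins, and could be tested. The other 24 had at most 50 counts in the 6 libraries together. COL6A5 and COL19A1 had none, 12 had 1 to 10 counts and 10 had more than 10. Among them were the fibrillar collagens COL1A2 (5 counts), COL2A1 (3 counts) and COL3A1 (24 counts), COL6A3 (50 counts) and the laminin chains LAMA1 (35 counts) and LAMB4 (33 counts). In an alternative on all genes with at least 1 count, 54 of the 56 members were fitted, and at an adjusted p under 0.05 COL18A1 alone was called. At these counts small or moderate differences were not detectable.

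Of the 32 tested genes, that of type XVIII collagen changed at an adjusted p under 0.05, and it was lower in IL17D-expressing cells. COL18A1 (ENSG00000182871, GRCh38 chr21:45405137-45513720, plus strand) had 192 CPM in control replicate 1, 199 CPM in control replicate 2 and 185 CPM in control replicate 3. IL17D replicates 1, 2 and 3 had 171, 154 and 157 CPM. All 3 IL17D libraries lay below all 3 control libraries, and the gap between the groups, from 171 to 185 CPM, was larger than the SD of either group. The mean fell from 191.7 ± 6.88 CPM to 161 ± 9.06 CPM (SD, n = 3). On the log2 scale the difference was -0.26, with a standard error (SE) of 0.042 and a 95% interval of -0.34 to -0.17, and the p-value adjusted over all tested genes was 0.000257 in the quasi-likelihood test of edgeR. In bulk RNA, fewer cells that express a gene and less of its RNA per cell cannot be told apart.

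The exons of COL18A1 overlap those of SLC19A1, a folate transporter gene on the opposite strand, over 1401 bases, which is 16.4% of the exon bases of COL18A1. Without a stated strand setting, reads on these bases cannot be assigned to either gene. SLC19A1 had 66.9 ± 2.13 CPM in control cells and 69.4 ± 3.39 CPM in IL17D-expressing cells (SD, n = 3; log2 fold change 0.054, adjusted p = 0.785 from edgeR). With the counts of both genes summed, a test added after the data were seen, the log2 fold change was -0.17 (adjusted p = 0.0124 from edgeR). As this sum holds the counts of COL18A1 itself, it cannot show to which gene the reads on the shared bases belong.

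The count of 1 member lower and 0 higher among 32 is to be read beside all tested genes, of which 0.908% were lower and 0.673% higher at an adjusted p under 0.05. With an unadjusted p under 0.05 where the log2 fold change was also beyond 0.2 either way, 2 members were lower, COL18A1 among them, and 0 were higher, beside 3.43% and 2.57% of all tested genes. At an unadjusted p under 0.05 alone, 4 of 32 members (12.5%) passed, beside 11.6% of all genes. All 3 IL17D libraries lay below all 3 control libraries in 6 members (18.8%), beside 8.31% of all genes, and above them in 0 members, beside 7.48%. Among the lower ones were COL18A1, COL5A1, COL27A1, COL4A6 and COL4A1. For COL4A6 the groups barely separated, at 177.19 CPM in control replicate 2 and 177.16 CPM in IL17D replicate 3. Of the tested members, 15 had a log2 fold change above 0 and 17 below 0, with a median of -0.016, and the median over all tested genes was -0.00044. For 9 of the 32, the 95% interval of the log2 fold change lay within 0.2 on either side of 0.

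**Figure D2:**
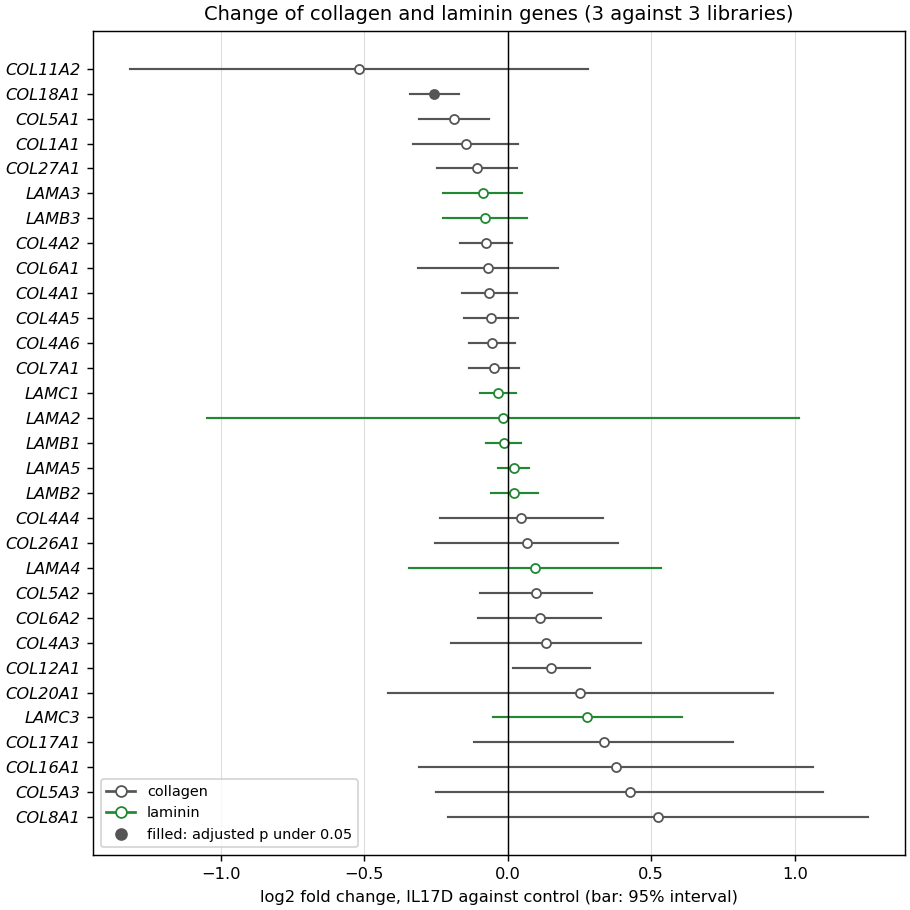
Log2 fold change of IL17D-expressing against control cells for all but 1 of the 32 tested collagen and laminin genes (points), with 95% intervals (bars). The filled point, at an adjusted p under 0.05, is COL18A1 at -0.26, and the intervals of COL5A1 and COL12A1 also lie to 1 side of 0.

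COL5A1 and COL12A1 had an unadjusted p under 0.05 from edgeR but did not pass at an adjusted p under 0.05. COL5A1, the chain that starts and limits the growth of collagen fibrils, had 61.2, 66.6 and 59.4 CPM in the control replicates and 58.6, 52.4 and 53.0 CPM in the IL17D replicates. The groups did not overlap, but the gap between the lowest control and the highest IL17D library was smaller than the SD of either group (3.72 and 3.42 CPM, n = 3). Its log2 fold change was -0.19 (SE 0.060, unadjusted p = 0.00356, adjusted p = 0.128 from edgeR). COL12A1, a fibril-associated collagen, had 39.9, 40.9 and 44.2 CPM in control cells and 44.1, 46.2 and 48.8 CPM in IL17D-expressing cells. The groups overlapped slightly, and the log2 fold change was 0.15 (SE 0.066, unadjusted p = 0.0265, adjusted p = 0.342 from edgeR). The plot of single libraries shows them beside COL18A1 and COL4A6.

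**Figure D3:**
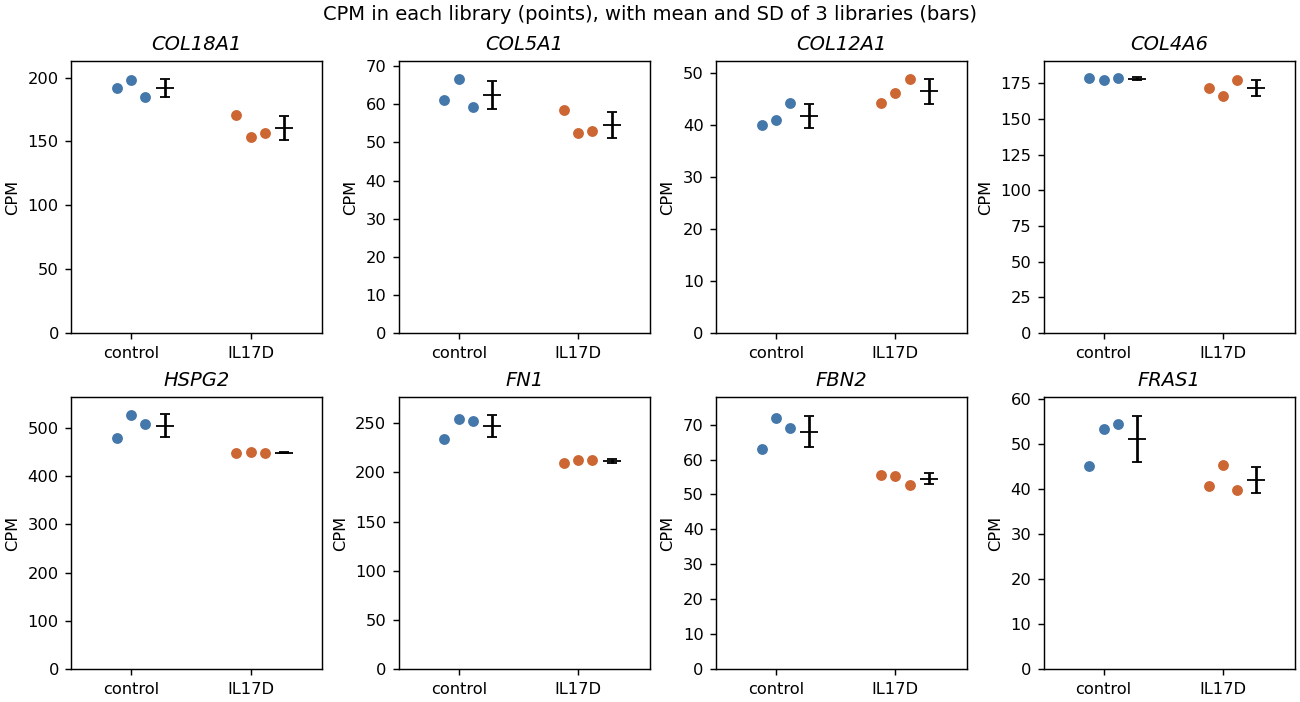
CPM in each of the 3 control and 3 IL17D libraries (points, in order of replicate number) with the mean and SD (bars, n = 3, axes from 0) for 4 collagen genes and 4 matrix genes that bind to or lie beside them. In COL18A1 the control libraries lie at 185 to 199 CPM and the IL17D libraries at 154 to 171 CPM, and in FRAS1 and COL12A1 the groups overlap.

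For the chains of laminin-511, the differences between the groups were close to 0 and their intervals were narrow. LAMA5 had 1465, 1526 and 1476 CPM in control cells and 1528, 1521 and 1483 CPM in IL17D-expressing cells, LAMB1 551, 557 and 569 CPM against 554, 552 and 555 CPM, and LAMC1 548, 575 and 571 CPM against 539.7, 563 and 552 CPM. The libraries of both groups were intermixed in all 3 genes. The log2 fold changes were 0.021 for LAMA5 (95% interval -0.033 to 0.076), -0.014 for LAMB1 (-0.075 to 0.048) and -0.034 for LAMC1 (-0.097 to 0.030). LAMB2 had 173, 174 and 175 CPM against 185, 169.8 and 176 CPM, with a log2 fold change of 0.023 (-0.058 to 0.10), whose sign turned when IL17D replicate 1 was left out. Adjusted p-values of these 4 genes from edgeR were 0.842, 0.922, 0.758 and 0.893. Relative to LAMA5, the level per kilobase was 0.660 ± 0.019 for LAMB1 in control and 0.644 ± 0.012 in IL17D-expressing cells, and 0.645 ± 0.011 and 0.621 ± 0.018 for LAMC1 (SD, n = 3).

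LAMA3 and LAMB3, chains of a laminin that attaches epithelial cells to the basement membrane, were at lower and unequal levels. LAMB3 had 35.3, 39.8 and 36.4 CPM in control cells and 33.6, 34.2 and 37.6 CPM in IL17D-expressing cells, a log2 fold change of -0.081 (95% interval -0.23 to 0.066). LAMA3 had a log2 fold change of -0.088 (95% interval -0.23 to 0.049). Per kilobase, LAMB3 stood at 2.56 ± 0.18 times LAMA3 in control cells and 2.57 ± 0.16 times in IL17D-expressing cells (SD, n = 3). LAMC3 (log2 fold change 0.28), LAMA4 (0.095) and LAMA2 (-0.018) each had overlapping groups, and LAMA2 was below 1.2 CPM in every library.

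All 6 type IV genes were tested, and none passed at either threshold. COL4A2 had 204, 224 and 198 CPM in control cells and 211, 187 and 195 CPM in IL17D-expressing cells, and its partner COL4A1 90.2, 90.8 and 91.0 CPM against 86.2, 85.6 and 88.6 CPM. The groups overlapped for COL4A2 and not for COL4A1. The log2 fold changes were -0.077 (95% interval -0.17 to 0.014) and -0.064 (-0.16 to 0.032). COL4A6 had 179, 177 and 179 CPM against 172, 166 and 177 CPM, a log2 fold change of -0.056 (-0.14 to 0.024), and COL4A5 101, 106 and 105 CPM against 101, 103 and 95.1 CPM, a log2 fold change of -0.059 (-0.15 to 0.036). In these 4 abundant chains the estimates were all below 0 and within 0.08 of it. COL4A3 and COL4A4, the chains of the kidney and lung alveolar basement membrane, were at 4.91 to 6.45 and 7.82 to 11.4 CPM, with log2 fold changes of 0.13 and 0.047. The ratios of the facing genes differed between the groups by less than the SD, with COL4A2 at 1.76 ± 0.11 times COL4A1 per kilobase in control and 1.74 ± 0.11 times in IL17D-expressing cells, and COL4A6 at 2.19 ± 0.056 and 2.20 ± 0.16 times COL4A5 (SD, n = 3). COL7A1, the anchoring fibril collagen, had 167, 173 and 155 CPM against 163, 155 and 162 CPM, with intermixed libraries and a log2 fold change of -0.048 (95% interval -0.13 to 0.039).

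The fibrillar and fibril-forming chains were expressed unevenly. COL1A1, the main chain of type I collagen, had 394, 338 and 358 counts in control libraries and 384, 336 and 274 counts in IL17D libraries, and COL1A2, the chain that pairs with it, had 2, 0 and 0 counts against 0, 2 and 1. COL1A2 thus stood below the 3-count limit in every library. COL1A1 had a log2 fold change of -0.15 (95% interval -0.33 to 0.036). For type V, the level of COL5A2 was 0.524 ± 0.066 of that of COL5A1 per kilobase in control cells and 0.637 ± 0.045 in IL17D-expressing cells (SD, n = 3), a difference that was not tested, and the log2 fold change of COL5A2 was 0.098 (adjusted p = 0.775 from edgeR). COL27A1, a fibrillar collagen of cartilage, had 37.5, 38.9 and 37.6 CPM against 34.0, 36.4 and 35.4 CPM, a log2 fold change of -0.11 (adjusted p = 0.607 from edgeR). COL11A2 (-0.52) and COL5A3 (0.42) had under 2.1 CPM in every library and intervals that spanned 0.

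In type VI collagen, a beaded filament of different chains, COL6A1 and COL6A2 were at 10.0 to 13.2 and 12.9 to 15.5 CPM, and COL6A3 had 50 counts in all. COL6A3 stood at 0.014 of the level of COL6A1 per kilobase in control cells and at 0.010 in IL17D-expressing cells. COL6A1 and COL6A2 had log2 fold changes of -0.069 and 0.11, with overlapping groups. Of the rest, the log2 fold changes were 0.33 for COL17A1, the transmembrane collagen of the hemidesmosome, 0.52 for COL8A1, 0.38 for COL16A1, 0.25 for COL20A1 and 0.066 for COL26A1, all with overlapping groups and adjusted p-values of 0.631 or more.

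**Figure D4:**
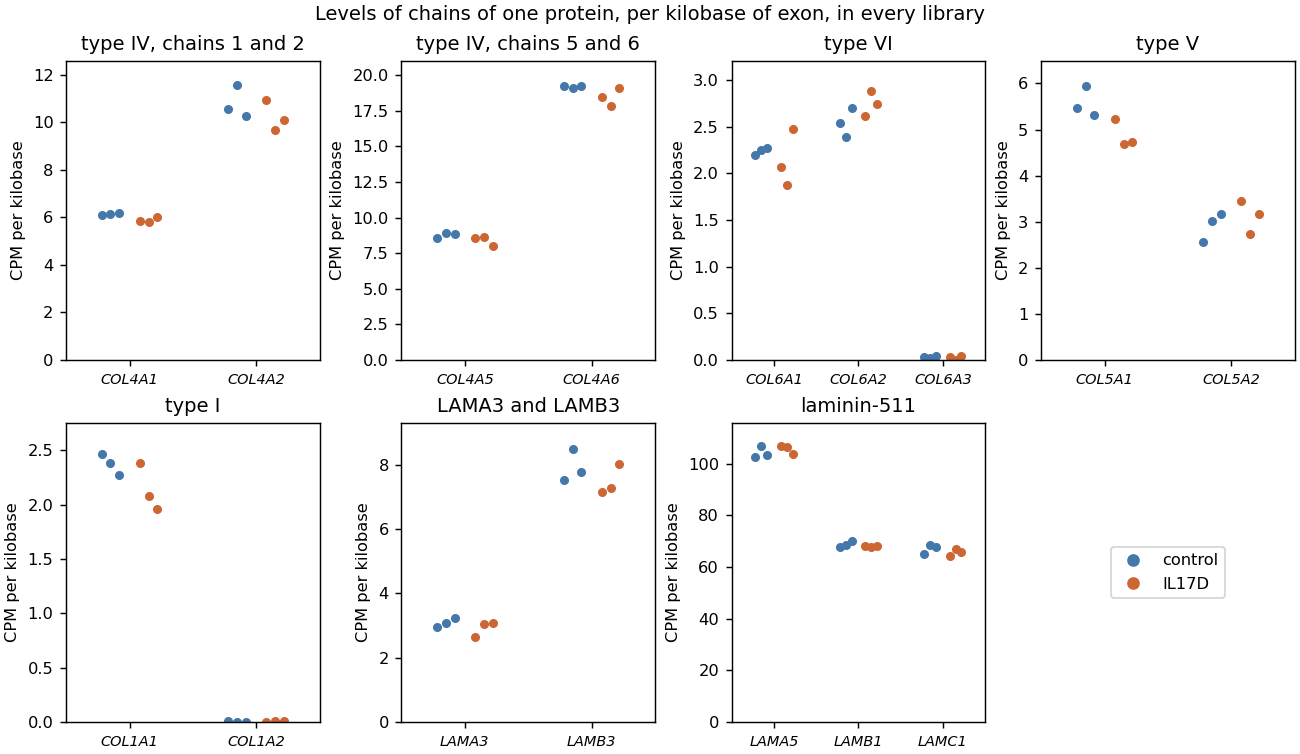
Levels in CPM per kilobase of exon (axes from 0) of genes whose chains are put together in 1 protein, with 1 point for each of the 3 control and 3 IL17D libraries. COL1A2 and COL6A3 lie near 0 beside COL1A1 and COL6A1, COL4A2 lies at 1.76 times COL4A1 in control cells, and LAMB1 and LAMC1 lie at 0.660 and 0.645 times LAMA5 in control cells (0.745 and 0.549 times with transcript length).

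The matrix proteins that collagens and laminins bind to or lie beside were counted as a list of 30 genes, of which 19 were tested, and 4 of these (21.1%) fell and 0 rose at an adjusted p under 0.05, beside 0.908% and 0.673% of all tested genes. The 3 gene lists used here and below were chosen with earlier results of these data known. Their shares beside all tested genes are therefore a description and not a test. The median of the matrix list was 0.0076 in log2, with 10 genes above 0 and 9 below. FN1, which encodes fibronectin, had 234, 255 and 253 CPM in control cells and 209.5, 213 and 213 CPM in IL17D-expressing cells, without overlap. It fell from 247 ± 11.4 CPM to 212 ± 1.93 CPM (SD, n = 3), with a log2 fold change of -0.22 (SE 0.038, adjusted p = 0.000403 from edgeR). FBN2, the microfibril protein fibrillin-2, had 63.1, 71.9 and 69.0 CPM against 55.4, 55.3 and 52.8 CPM. The groups did not overlap, and the log2 fold change was -0.32 (SE 0.058, adjusted p = 0.00108 from edgeR).

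HSPG2, which encodes perlecan, the heparan sulfate proteoglycan that links the laminin and type IV networks, had 479, 526 and 507 CPM in control cells and 448, 451 and 448 CPM in IL17D-expressing cells. It fell without overlap, with a log2 fold change of -0.17 (SE 0.034, adjusted p = 0.00333 from edgeR), and the adjusted p was 0.0607 when control replicate 2 was left out. LDLRAD2 on the opposite strand shares 11.7% of the exon bases of HSPG2, and it had 44 counts in all. FRAS1, a basement membrane protein of epithelia, had 45.2, 53.4 and 54.5 CPM against 40.7, 45.3 and 39.8 CPM, so that control replicate 1 lay within the range of the IL17D libraries. Its log2 fold change was -0.28 (SE 0.070, adjusted p = 0.0287 from edgeR), and the adjusted p was 0.0761 in DESeq2's test and, when 1 library was left out of edgeR's test, 0.149 without control replicate 2, 0.135 without control replicate 3, 0.148 without IL17D replicate 1 and 0.219 without IL17D replicate 3. Other basement membrane partners did not pass. AGRN, which encodes the laminin-binding proteoglycan agrin, had a log2 fold change of -0.051 (95% interval -0.12 to 0.015). NID1, 1 of the genes of nidogen, which bridges laminin and type IV collagen, was below 2.4 CPM in every library. The nidogen gene NID2 had 10.6, 11.6 and 10.1 CPM in control cells against 12.5, 12.4 and 12.3 CPM. It was higher without overlap but did not pass (log2 fold change 0.20, adjusted p = 0.535 from edgeR). RTRAF on the opposite strand shares 30.0% of the exon bases of NID2.

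The receptor list held 24 genes, of which 21 were tested, and 1 of these (4.76%) fell and 0 rose at an adjusted p under 0.05, beside 0.908% and 0.673% of all tested genes, with a median of -0.053. ITGB1, the beta chain that most collagen- and laminin-binding integrins share, had 2168, 2167 and 2233 CPM in control cells and 2010.4, 2058 and 2039 CPM in IL17D-expressing cells, without overlap. Its log2 fold change was -0.11 (SE 0.025, adjusted p = 0.0181 from edgeR), and the call was lost without control replicate 3 (adjusted p = 0.0562), IL17D replicate 1 (0.163) or IL17D replicate 3 (0.130). The laminin-binding chains ITGA3 (log2 fold change 0.037), ITGA6 (-0.0017) and ITGB4 (0.037), the dystroglycan gene DAG1 (-0.011) and the collagen receptor gene DDR1 (-0.037) had 95% intervals within 0.2 on either side of 0. Groups did not overlap in 2 lower genes, ITGB1 and CD44, and in 2 higher genes, SDC4 and ITGB4. Of all tested genes, 8.31% and 7.48% did not. CD44 (log2 fold change -0.064, adjusted p = 0.404) and SDC4 (0.12, adjusted p = 0.331) did not pass in edgeR.

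The list of collagen synthesis genes, which modify, fold, export, trim or cross-link the chains, held 38 genes, of which 31 were tested, and 1 of these (3.23%) fell and 0 rose at the same threshold, beside the same shares of all tested genes (0.908% and 0.673%), with a median of -0.0055. P3H3, of the prolyl 3-hydroxylase family, had 21.4, 21.4 and 23.8 CPM in control cells and 16.3, 14.8 and 20.0 CPM in IL17D-expressing cells. The groups did not overlap, and the log2 fold change was -0.39 (SE 0.10, adjusted p = 0.036 from edgeR). The call was lost in DESeq2's test (adjusted p = 0.096) and in edgeR's test without control replicate 1 (0.0714), 2 (0.058) or 3 (0.14) and without IL17D replicate 1 (0.152) or 2 (0.228). The log2 fold change of SERPINH1, the collagen chaperone, was -0.11 (adjusted p = 0.373 from edgeR), and that of P4HB, a subunit of the enzyme that makes hydroxyproline, was -0.051 (adjusted p = 0.523 from edgeR). Over the 3 lists together, 6 of 71 tested genes (8.45%) fell and 0 rose, beside 0.908% and 0.673% of all tested genes. As the lists were chosen with earlier results known, these shares only describe them. The calls of 4 of the 6, HSPG2, FRAS1, ITGB1 and P3H3, were lost when single libraries were left out.

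**Figure D5:**
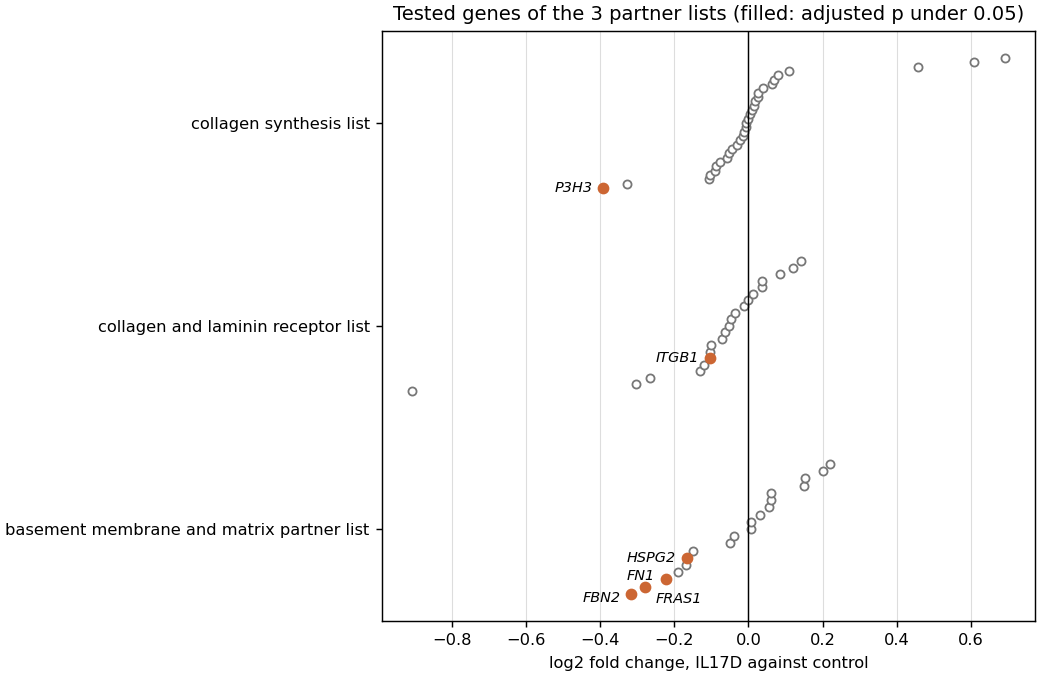
Log2 fold change of IL17D-expressing against control cells for the 71 tested genes of the 3 lists, 1 point per gene, ordered by value within each list. The 6 filled points, at an adjusted p under 0.05, all lie below 0, from -0.39 (P3H3) to -0.11 (ITGB1). The lists were chosen with earlier results of these data known.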

How the data were processed

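RNA-seq of 3 libraries of A549 cells with IL17D and 3 with empty vector was analysed. The table that the authors deposited holds raw counts, whole numbers of reads per gene and library that were not normalized, together with each gene's coordinates and a gene length in bases that equals the length of its merged GENCODE release 29 exons for all 56 members. Bowtie2 and the build hg38 are named in the submitters' processing notes, and the counting tool and its strand setting are not given in the sources used here. No per-sample column was left out. The members and the gene lists were chosen with earlier results of these data known.

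In R 4.3.3, genes were kept by the filterByExpr function of edgeR 4.0.16 (15754 of 58735), TMM scaled the libraries, and group differences were tested with glmQLFit and glmQLFTest, two-sided and without covariates, with Benjamini-Hochberg adjustment over all tested genes. Standard errors were the log2 fold change divided by the square root of F, and 95% intervals used the degrees of freedom of the fit. CPM came from edgeR's cpm. Described in full were members past an adjusted p under 0.05, then those with an unadjusted p under 0.05, then the 10 highest per kilobase, and partner genes past an adjusted p under 0.05. Alternatives used DESeq2 1.42.0, limma 3.58.1 (voom), other scalings and filters, the replicate number as a block, and each library left out. The steps were tested on simulated counts. Figures were drawn with matplotlib 3.10.9. Promoter windows came from a RefSeq table of build GRCh38.p14 and overlaps from GENCODE 29. Of the sequence of any tested member, at most 3.50% of 31-base stretches occurred in another gene. Among the partner genes past an adjusted p under 0.05, the share was 9.77% for ITGB1 and at most 2.36% for the others. A tested member enters the counts but is not reported here by itself. The symbol CTAGE5 of the synthesis list was not matched.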

Additional observations from a re-analysis of the deposited data

How the results depend on the processing

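COL18A1 was past an adjusted p under 0.05, in the same direction, in all 14 alternatives (adjusted p from 3.96e-07 to 0.0124, log2 fold change from -0.30 to -0.17), and the highest value came from the sum with SLC19A1. No other member was called in the 13 alternatives fitted to all genes. FN1 and FBN2 kept their call in all 13 alternatives run for them (highest adjusted p 0.00764 and 0.0216), and HSPG2, FRAS1, ITGB1 and P3H3 in 12, 8, 10 and 7 of 13. Members past the looser thresholds and higher numbered 1 on all genes with at least 1 count and 0 to 2 with 1 library left out, and those lower numbered 1 to 3. With 1 library left out, genes lower at an adjusted p under 0.05 numbered 2 to 4 in the matrix partner list, 0 to 1 in the receptor list and 0 to 1 in the synthesis list, and DESeq2's test gave 0 in the synthesis list. The median of the collagens was 0.055 on all genes with at least 1 count and -0.066 to 0.075 with 1 library left out, and that of the laminins was 0.0043 in limma voom and -0.047 to 0.0079, so neither median had a stable sign. LAMB2 reversed to -0.0094 without IL17D replicate 1 (range -0.0094 to 0.053 with each library left out). The cause was not tested. Other scalings moved the median of all genes by at most 0.0030 and changed no call of a member or partner.

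The replicate number as a replicate block gave a log2 fold change of -0.26 for COL18A1 (adjusted p = 1.68e-05) and changed no other call of a member or partner, with 115 genes higher and 157 lower against 106 and 143 without it. Deviations of same-numbered libraries from their group means had correlations of 0.00997, -0.0119 and -0.0151. Taken over all tested genes, these values cannot tell whether same-numbered libraries shared a culture or batch. The labels and methods do not say, and it was not tested further. Depth limited the 24 untested members and those under 2 CPM, whose intervals were wide.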

Other observations

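The signs of the log2 fold changes of the tested collagens were spread unevenly over their levels, when divided at 10 CPM, a division made after the values were seen. Of 13 collagens with a mean above 10 CPM, 10 were lower in IL17D-expressing cells, with a median log2 fold change of -0.064, and of 9 at or below 10 CPM, 1 was lower, with a median of 0.25. All 9 had overlapping groups, intervals that spanned 0 and adjusted p-values of 0.631 or more from edgeR, so their single signs are uncertain. Of 7 laminins above 10 CPM, 5 were lower, and of 3 at or below it, 1 was. Over all tested genes, 48.8% of those above 10 CPM and 52.3% of those at or below it were lower. No test was made of the division.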
